A study of Mus musculus with 9 samples.

Results

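Genes that hold or release the brake on the cell cycle were followed across cultured mouse adipose-derived stem cells (ASCs) of different fat depots. They were taken by name from the table of gene counts, as 10 of the 54532 genes listed and of the 16526 with enough reads for testing, and all 10 passed that filter. They are the Cip/Kip inhibitors Cdkn1a (p21) and Cdkn1b (p27), the Ink4 inhibitors Cdkn2a (p16 and Arf), Cdkn2b (p15), Cdkn2c (p18) and Cdkn2d (p19), the tumor suppressors Trp53 (p53) and Rb1, the p53 ubiquitin ligase Mdm2, and the nuclear lamina gene Lmnb1. All cells came from C57BL/6 mice and were grown in stem cell medium without any other treatment that the labels give. Sub-ASCs were from subcutaneous, Ab-ASCs from abdominal and PVASCs from perivascular adipose tissue, each with 3 libraries of mRNA from passages 3 to 6. Neither the age nor the number of the mice was given for these samples, nor whether libraries of a group came from separate cultures, so the p-values measure the spread between these samples, which may be technical. The passage of each single library was not given either, so it cannot be told apart from the depot.

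Depth was between 23781019 and 26872579 reads in Sub-ASC libraries, between 20524173 and 23832828 in Ab-ASC libraries and between 27136829 and 29881036 in PVASC libraries. Ab-ASC libraries varied most among themselves, with a biological coefficient of variation of 12.5% against 5.69% for Sub-ASCs and 3.85% for PVASCs. Ab-ASC replicate 1 stood apart, with a chi-square per degree of freedom of 27.6 and 17.4 against the other Ab-ASC libraries, which gave 4.10 between themselves. Without it, all calls of the 10 genes stayed as they were. All 9 markers of ASCs were found in every group, with a summed level of 7051 to 7082 CPM (reads scaled to the library size) in Sub-ASCs, 3701 to 3822 in Ab-ASCs and 4366 to 4515 in PVASCs. Of the 9, 4 were higher and 5 lower in PVASCs than in Sub-ASCs, as Ly6a (Sca1) was at 2049 CPM in Sub-ASCs, 21.8 in Ab-ASCs and 111 in PVASCs, and Thy1 at 332, 231 and 883 CPM. Levels below are given as FPKM, which divide the TMM-scaled CPM by the listed gene length in kilobases. That length covers all annotated exons of a gene, whichever transcripts are made, so different genes can be compared only roughly. Errors of means are SDs over 3 libraries.

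Cyclin-dependent kinases (CDKs) drive the cell cycle by phosphorylating RB proteins, which then release E2F factors to switch on S-phase genes. Ink4 proteins bind CDK4 and CDK6, while Cip/Kip proteins bind cyclin-CDK complexes and mainly block CDK2. Cdkn2a encodes p16 and, from another first exon and in another reading frame, Arf, which holds back Mdm2, so that p53 is stabilized and transcribes Cdkn1a and, as a feedback, Mdm2. In senescent cells, which have left the cycle for good, p16, p15 and p21 are known to build up, lamin B1 is lost and a set of cytokines and proteases is secreted. Cultured mouse fibroblasts also gain p16 and Arf as they are passaged.

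The promoters of Cdkn1a, Cdkn2a, Cdkn2b and Mdm2 are shown first, because the first and last are p53 targets and the other two are the neighbours on chromosome 4 that were highest in PVASCs. No entry for Lmnb1 or Rb1 was found in the table used here. Each window holds the 250 bases before each transcript start in RefSeq (GRCm38.p6), written 5′ to 3′ on the strand of the gene. Capitals mark matches to the p53 decamer, which is a single arm of a p53 response element, to an E2F site (TTTCCCGC, TTTGGCGC, TTTCGCGC or TTTGCCGC) or to a GC box (GGGCGG), searched on both strands. The windows are Cdkn1a at chr17:29090729-29090978 and at chr17:29093519-29093768 (plus strand), the Arf and the Ink4a start of Cdkn2a at chr4:89294620-89294869 and chr4:89282193-89282442, Cdkn2b at chr4:89311033-89311282, and Mdm2 at chr10:117710759-117711008 (minus strand).
Cdkn1a, upstream start: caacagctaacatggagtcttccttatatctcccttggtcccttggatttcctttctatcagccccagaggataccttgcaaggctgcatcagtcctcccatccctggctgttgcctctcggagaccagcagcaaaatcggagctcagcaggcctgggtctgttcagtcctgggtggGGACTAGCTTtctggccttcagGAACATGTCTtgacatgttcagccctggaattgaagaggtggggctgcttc
Cdkn1a, downstream start: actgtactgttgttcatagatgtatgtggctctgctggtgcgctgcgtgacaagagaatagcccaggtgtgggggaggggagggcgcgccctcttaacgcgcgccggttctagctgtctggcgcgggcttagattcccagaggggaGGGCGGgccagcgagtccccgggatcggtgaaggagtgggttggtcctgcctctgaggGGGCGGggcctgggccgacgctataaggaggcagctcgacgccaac
Cdkn2a, Arf start: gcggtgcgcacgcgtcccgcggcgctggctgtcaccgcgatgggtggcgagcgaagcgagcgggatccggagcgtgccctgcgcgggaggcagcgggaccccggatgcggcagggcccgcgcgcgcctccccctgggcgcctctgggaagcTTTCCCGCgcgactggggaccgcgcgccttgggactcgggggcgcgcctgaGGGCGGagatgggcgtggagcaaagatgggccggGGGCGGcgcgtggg
Cdkn2a, Ink4a start: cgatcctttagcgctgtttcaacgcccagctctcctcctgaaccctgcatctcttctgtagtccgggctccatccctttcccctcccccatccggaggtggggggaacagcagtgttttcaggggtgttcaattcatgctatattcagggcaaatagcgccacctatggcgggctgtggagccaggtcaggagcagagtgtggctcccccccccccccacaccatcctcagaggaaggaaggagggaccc
Cdkn2b: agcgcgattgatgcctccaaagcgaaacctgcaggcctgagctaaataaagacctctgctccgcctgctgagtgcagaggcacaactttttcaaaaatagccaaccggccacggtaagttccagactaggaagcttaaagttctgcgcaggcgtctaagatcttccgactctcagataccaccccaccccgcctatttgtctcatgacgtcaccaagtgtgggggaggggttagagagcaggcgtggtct
Mdm2: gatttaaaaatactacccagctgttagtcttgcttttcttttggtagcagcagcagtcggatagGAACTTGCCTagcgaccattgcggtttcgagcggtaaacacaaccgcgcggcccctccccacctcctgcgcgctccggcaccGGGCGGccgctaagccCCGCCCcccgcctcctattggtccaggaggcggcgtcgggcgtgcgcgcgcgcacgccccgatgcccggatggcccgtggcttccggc
The upstream window of Cdkn1a holds 2 p53 decamers, GGACTAGCTT from -73 to -64 and GAACATGTCT from -51 to -42, counted from the start. Mdm2 holds a single decamer, GAACTTGCCT from -186 to -177, with 2 GC boxes. The Arf window holds an E2F site, TTTCCCGC from -99 to -92, and 2 GC boxes, whereas none of these letters occur in the windows of the Ink4a start and of Cdkn2b. Among 32851 promoter windows of the same length, 7.13% held a p53 decamer, 1.86% an E2F site and 32.7% a GC box. RefSeq windows were read for 8 of the 10 genes. Trp53 and Cdkn2d also held 1 p53 decamer each, and that of Cdkn2d overlaps a GC box. A match describes letters in this window and does not show binding.

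The 10 genes did not follow one order across the depots (the plot of levels per library). PVASCs were higher than both other groups in Cdkn2a, Cdkn2b and Mdm2 (3 genes, beside 10.2% of genes tested). Ab-ASCs were so in Cdkn2c, Cdkn2d and Trp53 (3 genes, beside 20.9%), of which Cdkn2d lost the call and Trp53 turned its sign against PVASCs with another library scaling, given below. Sub-ASCs were so in Cdkn1b (1 gene, beside 28.7%). In turn, Sub-ASCs were lower than both others in Cdkn1a, Cdkn2c, Cdkn2d, Trp53, Mdm2 and Lmnb1 (6 genes, beside 27.5%), and Ab-ASCs in Cdkn1b, Cdkn2b and Rb1 (3 genes, beside 15.6%). In PVASCs against Sub-ASCs, 8 genes were higher and 1 was lower at an adjusted p under 0.05, beside 70.4% of all genes tested that were called (34.7% higher and 35.7% lower). In PVASCs against Ab-ASCs, 5 were higher and 3 lower, beside 56.9% (24.7% and 32.1%). In Ab-ASCs against Sub-ASCs, 6 were higher and 3 lower, beside 75.3% (37.0% and 38.3%). All 10 genes differed somewhere among the groups, as did 84.6% of genes tested. The libraries did not overlap between PVASCs and Sub-ASCs for 9 genes (beside 77.3% of genes tested), between PVASCs and Ab-ASCs for 10 (63.9%) and between Ab-ASCs and Sub-ASCs for 8 (76.5%). Being called is therefore common here, and the counts for the gene lists below are to be read beside these shares.

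Over the 10 genes, the median difference (log2) came to 0.58 for PVASCs against Sub-ASCs, 0.10 for PVASCs against Ab-ASCs and 0.76 for Ab-ASCs against Sub-ASCs. Over all genes tested the medians were -0.01, -0.06 and -0.03. The comparisons share libraries, so that these values are not independent of each other. With plain read totals in place of TMM-scaled library sizes, the medians of all genes moved to 0.15, 0.17 and -0.09, and those of the 10 genes to 0.73, 0.33 and 0.69, with 5 higher and 1 lower in PVASCs against Ab-ASCs. Small differences between PVASCs and Ab-ASCs depend on that choice. Of the 10 genes and 165 genes of the pathway lists tested, 30 changed sign in that comparison with read totals, all from differences of at most 0.22 on the log2 scale. Of these, 7 had been called with TMM (Trp53, Cdk2, Cdk7, E2f1, Myc, Sun1 and Mcm2), and none of the 7 was called with read totals. Conversely, 7 others that TMM had left uncalled were called as higher in PVASCs with read totals (Tfdp1, Cop1, Bax, Aen, Kdm2b, Zbtb7a and Mcm6). In bulk RNA, fewer cells that transcribe a gene and less RNA per cell cannot be told apart.

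**Figure D1:**
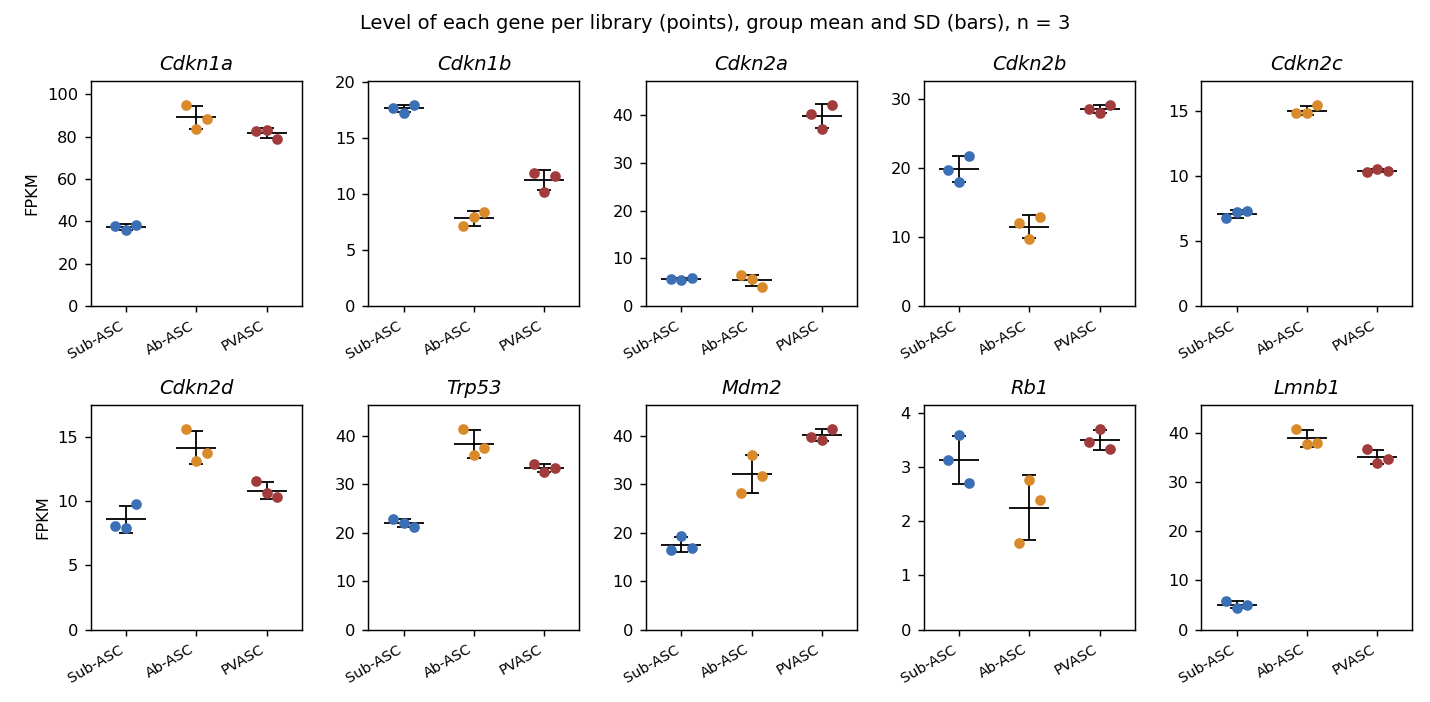
FPKM of each of the 10 genes (vertical axis, from 0) in the 9 libraries, grouped as Sub-ASC, Ab-ASC and PVASC; points are libraries, the long bar is the group mean and the whiskers are the SD (n = 3). Cdkn2a sits at 37.2 to 42.1 FPKM in PVASCs and at 3.99 to 6.46 FPKM in the other libraries, and Lmnb1 sits at 4.39 to 5.77 FPKM in Sub-ASCs and at 33.9 to 40.8 FPKM in the others.

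Cdkn2a was over 7-fold higher in PVASCs than in either other group. It lies on the minus strand of chromosome 4 (chr4:89274471-89294653, GRCm38, ENSMUSG00000044303). Its levels were 40.1, 37.2 and 42.1 FPKM in PVASC replicates 1, 2 and 3, against 5.60, 5.47 and 5.82 in Sub-ASCs and 6.46, 5.58 and 3.99 in Ab-ASCs. No PVASC library came near the others, while Sub-ASC and Ab-ASC libraries overlapped. These levels rest on 1285 to 1551 reads in PVASCs, 153 to 179 in Sub-ASCs and 105 to 147 in Ab-ASCs. PVASCs were 7.06-fold higher than Sub-ASCs (log2 fold change 2.82 ± 0.12, SE, adjusted p = 5.21e-10) and 7.50-fold higher than Ab-ASCs (2.91 ± 0.13, adjusted p = 2.68e-09). Sub-ASCs and Ab-ASCs did not differ beyond their spread (-0.09 ± 0.14, adjusted p = 0.599), and the sign of that small difference turned without Ab-ASC replicate 3 (0.10, adjusted p = 0.461), while without replicate 1 it was -0.23 (adjusted p = 0.123). At the median over all genes tested, the absolute log2 fold change was 0.59 against Sub-ASCs and 0.38 against Ab-ASCs.

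The count cannot be divided between p16 and Arf. The transcripts share 575 of the 1172 bases of the gene (49.1%), which are exon 2 and most of exon 3, and only 277 bases belong to the Ink4a transcript alone and 320 to the Arf transcript alone. Their first exons start 12.5 kb apart in the annotation. Counts per exon or junction were not analysed here.

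Cdkn2b, which encodes p15 and lies just upstream of Cdkn2a (chr4:89306299-89311039), took the same top place in PVASCs with smaller steps. PVASC replicates had 28.7, 28.1 and 29.2 FPKM, Sub-ASC replicates 19.8, 18.1 and 21.8, and Ab-ASC replicates 12.1, 9.66 and 12.9. The groups did not overlap in any pair. PVASCs were higher than Sub-ASCs (log2 fold change 0.53 ± 0.10, adjusted p = 0.000348) and 2.48-fold higher than Ab-ASCs (1.31 ± 0.10, adjusted p = 4.83e-07). Unlike Cdkn2a, it also parted the other depots, as Ab-ASCs were lower than Sub-ASCs (-0.79 ± 0.10, adjusted p = 1.89e-05). The ratio of Cdkn2a to Cdkn2b in FPKM was 0.284 ± 0.0176 in Sub-ASCs, 0.474 ± 0.144 in Ab-ASCs and 1.39 ± 0.0607 in PVASCs.

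Cdkn2c and Cdkn2d, whose products p18 and p19 hold CDK4 and CDK6 in many tissues and not as markers of senescence, were highest in Ab-ASCs. Cdkn2c (chr4:109660876-109667189) was at 14.8, 14.8 and 15.4 FPKM in Ab-ASCs, 10.3, 10.5 and 10.3 in PVASCs and 6.73, 7.20 and 7.28 in Sub-ASCs. The 3 groups were apart, in the order Ab-ASC, PVASC, Sub-ASC. PVASCs were higher than Sub-ASCs (0.55 ± 0.06, adjusted p = 4.28e-06) and lower than Ab-ASCs (-0.53 ± 0.06, adjusted p = 1.28e-05), and Ab-ASCs were higher than Sub-ASCs (1.09 ± 0.06, adjusted p = 6.31e-09). Cdkn2d (chr9:21288410-21291407) was at 15.6, 13.1 and 13.7 FPKM in Ab-ASCs, 11.6, 10.6 and 10.3 in PVASCs and 8.07, 7.92 and 9.79 in Sub-ASCs. It had the same order with less distance between groups. Its log2 fold change was 0.33 ± 0.10 in PVASCs against Sub-ASCs (adjusted p = 0.0112), -0.38 ± 0.10 against Ab-ASCs (adjusted p = 0.00580) and 0.72 ± 0.10 in Ab-ASCs against Sub-ASCs (adjusted p = 3.96e-05). Its difference from Sub-ASCs missed the threshold without Sub-ASC replicate 1 (0.29, adjusted p = 0.0509) or replicate 2 (0.28, adjusted p = 0.0502), and that from Ab-ASCs missed it with read totals (-0.16, adjusted p = 0.178).

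The make-up of the Ink4 family therefore differed between the depots (the plot of family shares). Cdkn2b was the largest part in Sub-ASCs, with 48.2% ± 1.32 of the summed FPKM of the 4 genes. In Ab-ASCs the family was led by Cdkn2c (32.7% ± 2.15) and Cdkn2d (30.7% ± 1.08), with ranges that overlapped. In PVASCs, Cdkn2a made up 44.4% ± 1.39, against 13.7% ± 0.589 in Sub-ASCs and 11.6% ± 2.53 in Ab-ASCs. The sum of the 4 genes was 41.2 ± 3.13 FPKM in Sub-ASCs, 46.1 ± 2.87 in Ab-ASCs and 89.6 ± 2.91 in PVASCs. The Cdkn2a count holds both p16 and Arf, so the part of p16 in these shares and sums is not known. Shares within a library do not depend on how libraries are scaled.

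**Figure D2:**
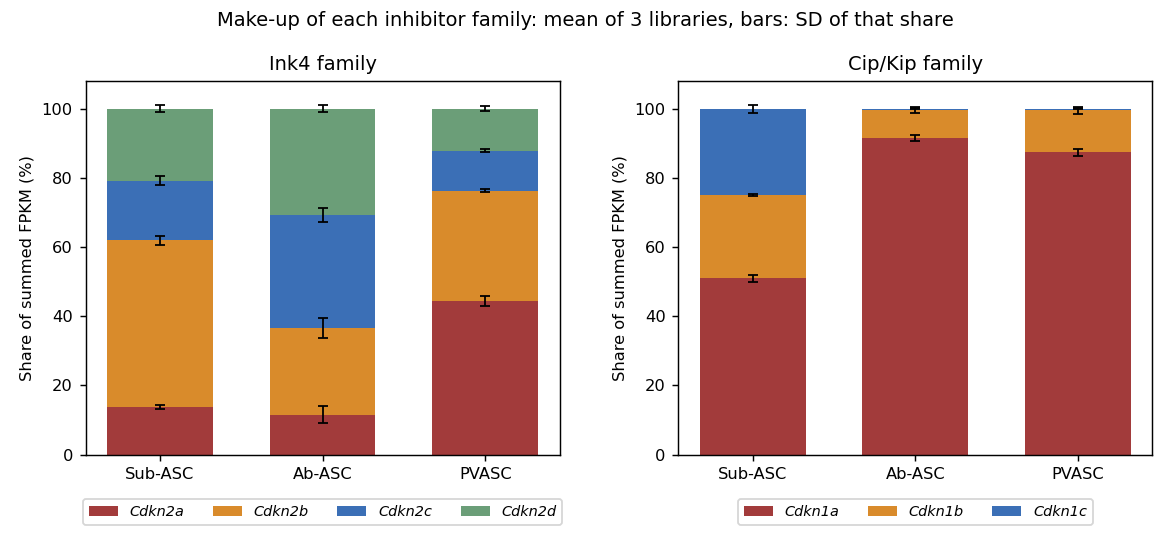
Share of each gene in the summed FPKM of the Ink4 family (left) and the Cip/Kip family (right), in percent from 0, for Sub-ASC, Ab-ASC and PVASC; coloured segments are means of 3 libraries and whiskers are the SD of the share they end. Cdkn2a (p16 and Arf counted together) takes 44.4% of the Ink4 sum in PVASCs, and Cdkn1c takes 25.0% of the Cip/Kip sum in Sub-ASCs and under 1% elsewhere.

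The surroundings of Cdkn2a and Cdkn2b on chromosome 4 were read as well, a choice made after their values were seen. Counting Cdkn2a and Cdkn2b themselves, 14 genes are listed within 250 kb on either side, 6 had enough reads for testing and 2 had no read in any library. Mtap, the methylthioadenosine phosphorylase gene on the opposite strand (chr4:89137122-89181081), had 39.0 ± 3.62 CPM in Sub-ASCs, 83.7 ± 4.69 in Ab-ASCs and 133 ± 1.58 in PVASCs. PVASCs exceeded Sub-ASCs (1.77 ± 0.07, adjusted p = 2.39e-10) and Ab-ASCs (0.67 ± 0.07, adjusted p = 6.41e-06). Wincr1, a long noncoding RNA gene (chr4:89050308-89084614), had 171, 156 and 175 reads in PVASCs, 16, 14 and 20 in Ab-ASCs and 0, 0 and 1 in Sub-ASCs. Gm12602 had 52, 58 and 56 reads in PVASCs, 3, 4 and 10 in Ab-ASCs and 0, 0 and 1 in Sub-ASCs. AL805899.2 had 23, 22 and 20 reads in PVASCs, 0, 1 and 3 in Ab-ASCs and 0, 0 and 1 in Sub-ASCs. These 3 noncoding genes entered the test through their reads in PVASCs, so their number is not counted as a result. Among the neighbours with too few reads for testing, Gm12609 had 5, 6 and 2 reads in Sub-ASCs, none in Ab-ASCs and 3, 2 and 4 in PVASCs, and Gm12606, next to Cdkn2a, had 2, 3 and 2, none, and 10, 8 and 12 reads in the same order.

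**Figure D3:**
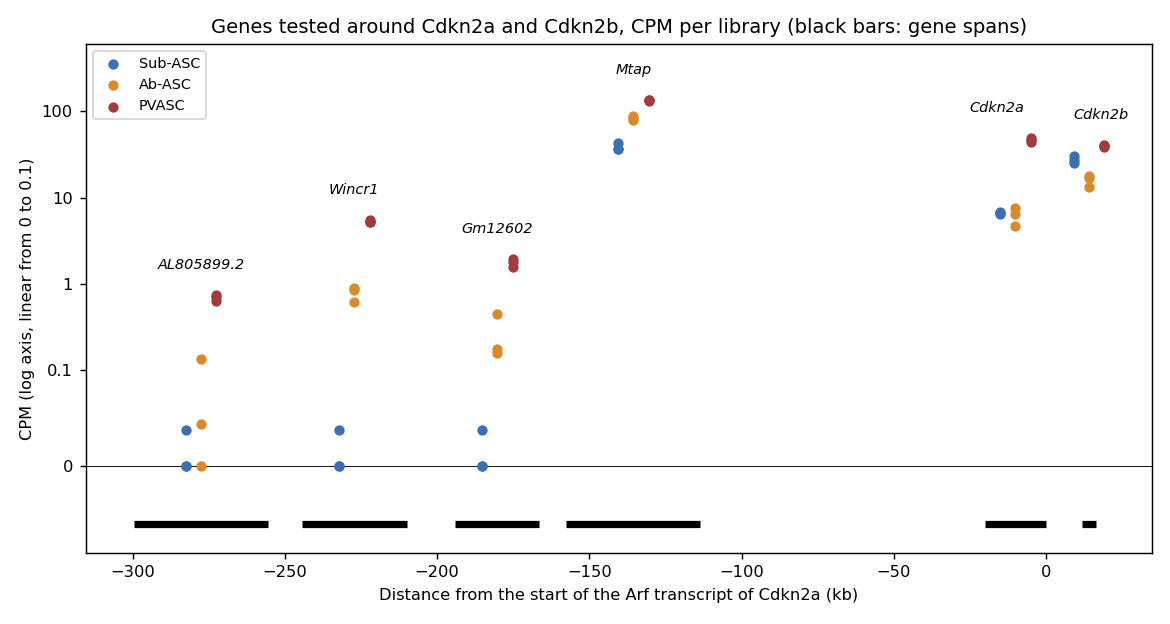
CPM in each library (vertical axis, logarithmic and linear from 0 to 0.1) of the genes tested around Cdkn2a and Cdkn2b, against the distance in kb from the start of the Arf transcript; points are libraries coloured by group, side by side for clarity, and black bars are gene spans. Mean CPM at Mtap is 39.0 in Sub-ASCs, 83.7 in Ab-ASCs and 133 in PVASCs; the 3 noncoding genes entered the plot through their reads in PVASCs, and untested neighbours are not drawn.

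Regulators of this locus moved in both directions. Polycomb complexes (Bmi1, Ezh2, Eed, Suz12, Cbx7) are known to silence Cdkn2a, Tbx2, Tbx3, Twist1 and Id1 are known repressors of it, and Ets1, Ets2 and Dmtf1 are activators of p16 or Arf. Of 21 such genes, 11 were higher and 7 lower in PVASCs than in Sub-ASCs (median log2 fold change 0.25), and 9 were higher and 6 lower than in Ab-ASCs (median 0.00). With read totals, 13 were higher and 7 lower than in Sub-ASCs (median 0.41), and 12 were higher and 3 lower than in Ab-ASCs (median 0.22). Against both other groups, PVASCs were higher in Bmi1, Eed, Suz12, Cbx2 and Ets1 and lower in Kdm6b, Tbx3, Twist1 and Ets2. These 5 (8 with read totals) and 4 (at most 3 with read totals, the number then lower than in Ab-ASCs) of 21 stand beside 10.2% and 12.0% of all genes tested. Among the repressors, Tbx3 was at 11.5 CPM in PVASCs against 35.9 in Ab-ASCs and 29.7 in Sub-ASCs (-1.64 ± 0.08 and -1.37 ± 0.08). Twist1 was at 34.4, 65.5 and 89.3 CPM in the same order (-0.93 ± 0.08 and -1.38 ± 0.07). Ets1 was at 73.5, 41.1 and 51.4 CPM (0.84 ± 0.07 and 0.52 ± 0.07), while Ets2 was at 35.4, 61.2 and 99.9 CPM (-0.79 ± 0.06 and -1.50 ± 0.06). All of these differences had adjusted p-values of 3.45e-05 or less. Cbx7 was higher in PVASCs than in Ab-ASCs (2.61 against 1.56 CPM, 0.77 ± 0.22, adjusted p = 0.0118) and lower than in Sub-ASCs (8.52 CPM, -1.70 ± 0.17, adjusted p = 1.76e-06). Cbx6, also of the Polycomb family, was at 130, 90.0 and 224 CPM in PVASCs, Ab-ASCs and Sub-ASCs. Ezh2 and Id1 exceeded their Sub-ASC levels in PVASCs (1.68 ± 0.09 and 1.81 ± 0.09), and against Ab-ASCs they were at -0.04 ± 0.08 (adjusted p = 0.694, and 0.18 with read totals or -0.09 without Ab-ASC replicate 1) and -0.32 ± 0.08 (adjusted p = 0.00671). The size of that small Id1 difference depends on the library scaling, as read totals moved the median of all genes from -0.06 to 0.17.

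Among the Cip/Kip inhibitors, Cdkn1a was the most abundant of the 10 genes in every group. It lies at chr17:29090976-29100727 on the plus strand. Sub-ASC replicates had 38.0, 35.9 and 38.1 FPKM, Ab-ASC replicates 95.0, 83.9 and 88.5, and PVASC replicates 82.8, 83.2 and 78.9. Every Ab-ASC and PVASC library was above every Sub-ASC library by over 40 FPKM. PVASCs were 2.19-fold higher than Sub-ASCs (1.13 ± 0.06, adjusted p = 2.28e-09) and Ab-ASCs were higher too (1.25 ± 0.06, adjusted p = 8.14e-10). Between PVASCs and Ab-ASCs the fit gave -0.13 ± 0.06 (adjusted p = 0.0751). That small difference was -0.08 without Ab-ASC replicate 1 (adjusted p = 0.161), passed the threshold without replicate 2 (-0.17, adjusted p = 0.0212) and changed its sign with read totals (0.10, adjusted p = 0.0863). A gene on the opposite strand, AC167363.2, overlaps 1046 bases of Cdkn1a but had only 41 to 88 reads per group, against 9943 to 27165 for Cdkn1a.

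Cdkn1b went the other way, with its highest level in Sub-ASCs. The p27 protein it encodes is held high in resting cells and is destroyed through Skp2 as cells enter S phase. It lies at chr6:134920401-134925513. Its levels were 17.7, 17.3 and 17.9 FPKM in Sub-ASCs, 11.9, 10.2 and 11.6 in PVASCs and 7.12, 7.92 and 8.42 in Ab-ASCs. The groups did not overlap. PVASCs were lower than Sub-ASCs (-0.65 ± 0.07, adjusted p = 5.70e-06) and higher than Ab-ASCs (0.52 ± 0.08, adjusted p = 0.000121), and Ab-ASCs were lower than Sub-ASCs (-1.17 ± 0.08, adjusted p = 2.60e-08). The ratio of Cdkn1a to Cdkn1b in FPKM was 2.12 ± 0.0358 in Sub-ASCs, 11.5 ± 1.61 in Ab-ASCs and 7.31 ± 0.731 in PVASCs.

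The third Cip/Kip gene, Cdkn1c (p57, an imprinted inhibitor), was at a low level outside Sub-ASCs. It had 819, 948 and 1041 reads in Sub-ASCs, 19, 17 and 14 in Ab-ASCs and 27, 28 and 34 in PVASCs, or 37.4, 0.800 and 0.952 CPM on average. PVASCs were lower than Sub-ASCs by a log2 fold change of -5.29 ± 0.13 (adjusted p = 1.91e-12), and Ab-ASCs by -5.56. It made up 25.0% ± 1.19 of the Cip/Kip sum in Sub-ASCs, 0.402% ± 0.0864 in Ab-ASCs and 0.501% ± 0.0786 in PVASCs. Cdkn1a made up 50.9% ± 1.01, 91.5% ± 0.898 and 87.5% ± 1.02 in the same order. Thus Sub-ASCs had a mixed Cip/Kip family, and the other depots one made up mostly of Cdkn1a. Cdkn3, a phosphatase of CDKs, was at 2.89 CPM in Sub-ASCs, 12.6 in Ab-ASCs and 9.08 in PVASCs.

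Genes of p27 turnover and FoxO factors, which transcribe Cdkn1b, were split. Of 9, 3 were higher and 4 lower in PVASCs than in Sub-ASCs (median -0.14, or 0.02 with read totals), and 3 were higher and 5 lower in Ab-ASCs than in Sub-ASCs (median -0.34). Skp2, the substrate receptor for p27, was higher in PVASCs than in Sub-ASCs (25.8 against 7.71 CPM, 1.74 ± 0.08, adjusted p = 1.50e-09), as was its cofactor Cks1b (76.6 against 25.0 CPM, 1.62 ± 0.08). Cks1b was highest in Ab-ASCs, at 116 CPM, above both other groups. Foxo3 was lower in PVASCs than in Sub-ASCs (56.1 against 90.6 CPM, -0.69 ± 0.05, adjusted p = 1.58e-07), and so was Foxo4 (-0.86 ± 0.10). Foxo1 was lowest in Ab-ASCs, at 13.8 CPM against 25.1 in PVASCs (0.86 ± 0.08, adjusted p = 1.62e-06) and 27.6 in Sub-ASCs. Against Ab-ASCs, 5 of the 9 passed the test (3 higher and 2 lower in PVASCs, median 0.13), and with read totals 7 were higher and 1 lower (median 0.35). Cul1, a scaffold of the Skp2 ligase, was at 114 CPM in PVASCs and 90.9 in Ab-ASCs (0.33 ± 0.12, adjusted p = 0.0285, and 0.17, adjusted p = 0.0120, without Ab-ASC replicate 1). Ubac1, a part of the ligase that acts on p27 in G1, was at 32.8 and 41.2 CPM (-0.33 ± 0.07, adjusted p = 0.00159), and its call was lost with read totals (-0.10, adjusted p = 0.182).

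**Figure D4:**
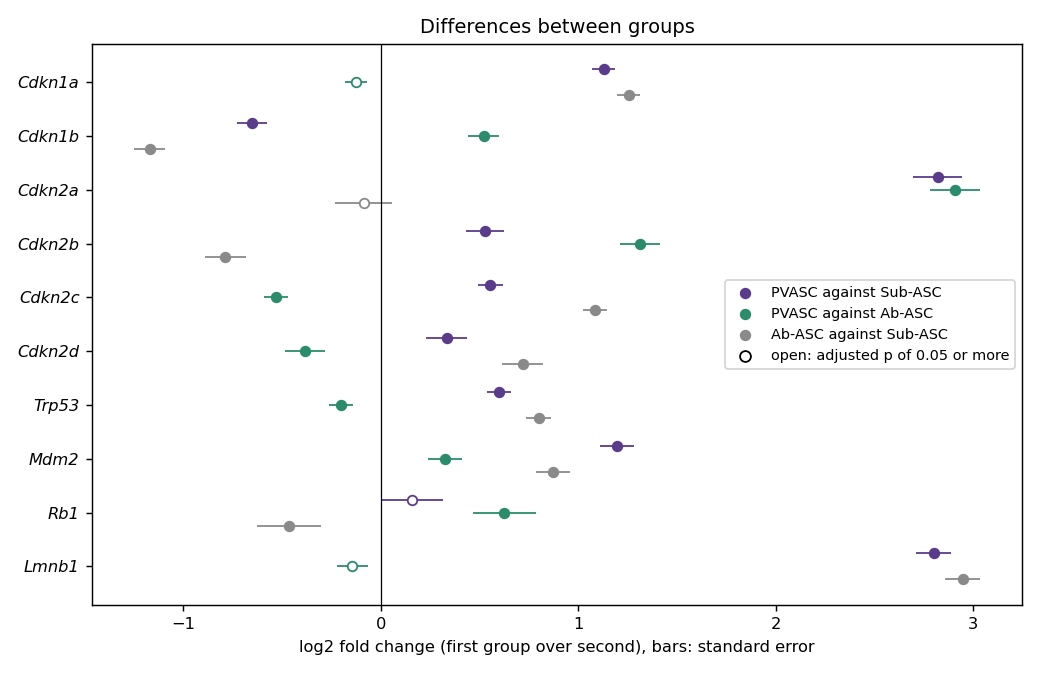
Log2 fold change (horizontal axis) of each of the 10 genes for PVASC against Sub-ASC, PVASC against Ab-ASC and Ab-ASC against Sub-ASC; whiskers are standard errors and open points have an adjusted p of 0.05 or more. Cdkn2a stands at 2.82 and 2.91 in the comparisons with PVASCs, and Lmnb1 at 2.80 and 2.95 in those with Sub-ASCs.

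Trp53 and Mdm2 were both lowest in Sub-ASCs, but parted in the other depots. Trp53 (chr11:69580359-69591873) was at 22.9, 21.9 and 21.2 FPKM in Sub-ASCs, 41.5, 36.0 and 37.5 in Ab-ASCs and 34.2, 32.5 and 33.3 in PVASCs. PVASCs were higher than Sub-ASCs (0.60 ± 0.06, adjusted p = 2.32e-06) and Ab-ASCs were higher still (0.80 ± 0.06, adjusted p = 1.42e-07). PVASCs were lower than Ab-ASCs by a small step (-0.20 ± 0.06, adjusted p = 0.0147). This step missed the threshold without PVASC replicate 2 (-0.18, adjusted p = 0.0622) and in a fit of these 2 groups alone (-0.12, adjusted p = 0.0903), and was 0.03 (adjusted p = 0.689) with read totals.

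Mdm2 (chr10:117688875-117710758) was at 16.5, 19.3 and 16.8 FPKM in Sub-ASCs, 28.3, 36.2 and 31.8 in Ab-ASCs and 39.8, 39.3 and 41.5 in PVASCs. All PVASC libraries were above all Ab-ASC libraries, and these above all Sub-ASC libraries. PVASCs were 2.29-fold higher than Sub-ASCs (1.20 ± 0.09, adjusted p = 7.71e-08) and higher than Ab-ASCs (0.33 ± 0.09, adjusted p = 0.00652), and Ab-ASCs were higher than Sub-ASCs (0.87 ± 0.09, adjusted p = 1.52e-06). Relative to Trp53, Mdm2 was at 0.797 ± 0.0800 in Sub-ASCs, 0.845 ± 0.161 in Ab-ASCs and 1.21 ± 0.0402 in PVASCs, as a ratio of FPKM. The ratio of Cdkn1a to Trp53 was 1.70 ± 0.0881 in Sub-ASCs and 2.33 ± 0.0336 in Ab-ASCs and ranged from 2.37 to 2.56 in PVASCs, so that both p53 targets stood higher against Trp53 in PVASCs than in Sub-ASCs.

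Of 15 regulators of p53, 6 were higher and 3 lower in PVASCs than in Sub-ASCs (median 0.06). Against Ab-ASCs, 6 were higher and 3 lower as well (median 0.09). Against both other groups at once, 3 were higher (Atr, Chek1 and Trp53bp1), or 5 with read totals, beside 10.2% of genes tested. Kat5 alone was lower than in both, beside 12.0% of genes tested. With read totals, 9 were higher and 1 lower than in Sub-ASCs (median 0.22), and 9 were higher and 2 lower than in Ab-ASCs (median 0.31). Mdm4, the partner of Mdm2 that inhibits p53, was at 122 CPM in Sub-ASCs, 76.1 in PVASCs (-0.68 ± 0.14, adjusted p = 0.000724) and 50.5 in Ab-ASCs. Ep300, an acetyltransferase of p53, was at 111 CPM in Sub-ASCs, 90.0 in PVASCs (-0.30 ± 0.06, adjusted p = 0.000741) and 84.6 in Ab-ASCs. Of the kinases of the DNA damage response, Chek1 and Atr had their top levels in PVASCs, above both other groups. Chek1 was at 11.1 CPM in PVASCs, 6.10 in Ab-ASCs (0.84 ± 0.21, adjusted p = 0.00447) and 2.25 in Sub-ASCs (2.30 ± 0.24, adjusted p = 2.16e-06). Atr was at 24.4 CPM in PVASCs, 10.9 in Ab-ASCs (1.15 ± 0.21, adjusted p = 0.000542) and 15.4 in Sub-ASCs (0.67 ± 0.20, adjusted p = 0.00939). Atm was at 33.2 CPM in PVASCs, 13.9 in Ab-ASCs (1.23 ± 0.22, adjusted p = 0.000508) and 40.9 in Sub-ASCs (-0.30 ± 0.20, adjusted p = 0.205). Chek2 was at 12.3 CPM in PVASCs and 5.71 in Sub-ASCs (1.11 ± 0.11, adjusted p = 1.92e-06), and at -0.04 ± 0.11 against Ab-ASCs (adjusted p = 0.784), with 0.19 from read totals and 0.04 without Ab-ASC replicate 1. The Ab-ASC levels of Atm and Atr rest in part on replicate 1, with 135 and 121 reads against 351 to 426 and 253 to 336 in the others. Without it, the differences of PVASCs from Ab-ASCs were 0.94 for Atm, 0.89 for Atr and 0.57 for Chek1, with adjusted p-values of 0.000238 or less. Hipk2 and Kat5 were lower in PVASCs than in Ab-ASCs (-0.49 ± 0.06 and -0.48 ± 0.08).

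Beyond Cdkn1a and Mdm2, 25 further p53 target genes were listed, and their summed level was highest in PVASCs. It was 1994 to 2022 CPM there, 1594 to 1692 in Ab-ASCs and 860 to 865 in Sub-ASCs. Single genes weigh heavily in it, as Ccng1 held 575 CPM in PVASCs and 290 in Ab-ASCs, and Plk2 200 and 395. Against Sub-ASCs, 19 of the 25 were higher and 4 lower in PVASCs (median 0.89). Against Ab-ASCs, 17 were higher and 1 was lower (median 0.51, beside -0.06 over all genes tested), and with read totals 22 were higher and 1 lower (0.73, beside 0.17). In PVASCs 11 of the 25 exceeded both other groups, beside 10.2% of genes tested: Ccng1, Bbc3, Pmaip1, Sesn2, Zmat3, Eda2r, Pidd1, Polk, Ddit4l, Ephx1 and Psrc1. The list was drawn up with earlier results of these data known, and it was not tested against other lists.

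Among these targets, Ccng1 (cyclin G1) was at 575 CPM in PVASCs, 290 in Ab-ASCs (0.99 ± 0.14, adjusted p = 9.49e-05) and 151 in Sub-ASCs (1.93 ± 0.14, adjusted p = 1.05e-07). Pmaip1 (Noxa, which promotes apoptosis) was at 17.3 CPM, 6.87 (1.32 ± 0.16, adjusted p = 2.51e-05) and 2.57 (2.75 ± 0.18, adjusted p = 2.68e-08). Eda2r, a receptor of the TNF receptor family, was at 63.0, 31.9 (0.98 ± 0.11) and 17.8 CPM (1.82 ± 0.11). Other targets were shared by PVASCs and Ab-ASCs. Ckap2 was at 61.1 CPM in PVASCs and 54.7 in Ab-ASCs (0.16 ± 0.09, adjusted p = 0.139, and 0.07 without Ab-ASC replicate 1), against 5.68 in Sub-ASCs (3.42 ± 0.10), and Perp had 2 reads in each Sub-ASC library, 63 to 69 in Ab-ASC libraries and 91 to 107 in PVASC libraries. Plk2 was highest in Ab-ASCs, at 395 CPM against 200 in PVASCs (-0.98 ± 0.05) and 25.3 in Sub-ASCs. Gadd45a, a growth arrest gene, and Fas, a death receptor gene, were lower in PVASCs than in Sub-ASCs, while Btg2, a further growth arrest gene, was higher (66.2 against 16.9 CPM, 1.97 ± 0.08). Gadd45a was at 17.9 CPM in PVASCs and 54.6 in Sub-ASCs (-1.61 ± 0.11), and Fas at 9.34 and 27.3 CPM (-1.55 ± 0.09), with 12.3 and 7.66 CPM in Ab-ASCs. Trp53inp1 was at 54.8 CPM in PVASCs, 80.6 in Sub-ASCs (-0.56 ± 0.18, adjusted p = 0.0151) and 10.6 in Ab-ASCs (2.35 ± 0.21, adjusted p = 1.55e-06, and 2.06 without Ab-ASC replicate 1). Ckap2 and Psrc1 are also known as mitotic genes, and proliferation genes are given below.

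**Figure D5:**
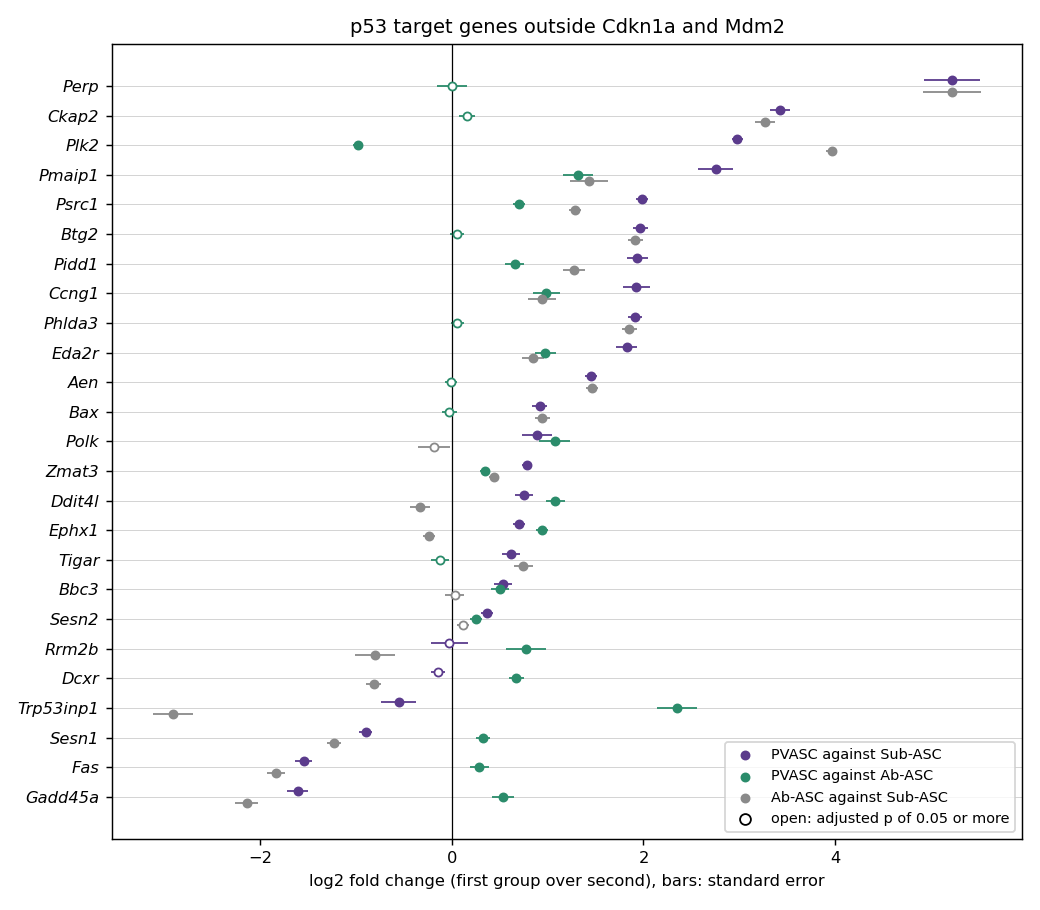
Log2 fold change (horizontal axis) of 25 p53 target genes other than Cdkn1a and Mdm2 in the 3 comparisons, ordered by PVASC against Sub-ASC; whiskers are standard errors and open points have an adjusted p of 0.05 or more. Against Ab-ASCs, 17 points lie above 0 and are filled and Plk2 alone lies below and is filled; the value of Perp against Sub-ASCs rests on 2 reads in each Sub-ASC library.

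Rb1 was the lowest of the 10 genes and the least certain. It lies at chr14:73183673-73325822 on the minus strand. Its levels were 3.12, 3.58 and 2.70 FPKM in Sub-ASCs, 1.60, 2.76 and 2.39 in Ab-ASCs and 3.47, 3.70 and 3.33 in PVASCs. Sub-ASC libraries overlapped both other groups, while PVASC and Ab-ASC libraries were apart. PVASCs were higher than Ab-ASCs (0.63 ± 0.16, adjusted p = 0.00538), with no call against Sub-ASCs (0.16 ± 0.15, adjusted p = 0.373). Ab-ASCs were lower than Sub-ASCs (-0.47 ± 0.16, adjusted p = 0.0201), a call that was lost without Sub-ASC replicate 2 (-0.35, adjusted p = 0.0985) or in a fit of these 2 groups alone (-0.48, adjusted p = 0.0543). Without Ab-ASC replicate 1, the lowest library, that difference of Rb1 was -0.28 (adjusted p = 0.0264) and the difference of PVASCs from Ab-ASCs was 0.44 (adjusted p = 0.00143). Lpar6 and Rcbtb2 overlap Rb1 on the opposite strand, and 12.0% of the 50-base stretches of Rb1 transcripts also occur in theirs. Strand was not stated for the counts, so reads from these genes cannot be fully told apart. Lpar6 had 726, 430 and 1884 reads over the Sub-ASC, Ab-ASC and PVASC libraries and Rcbtb2 had 2552, 2367 and 3477, beside 1411, 876 and 1968 for Rb1.

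Of 16 further genes of the RB family, E2F factors and their partners, 10 were higher and 3 lower in PVASCs than in Sub-ASCs (median 0.61), and 11 were higher and 3 lower in Ab-ASCs than in Sub-ASCs (median 0.64). Between PVASCs and Ab-ASCs, 2 were higher and 3 lower (median -0.03), and with read totals 6 were higher and 1 lower (median 0.20). Without PVASC replicate 1, 3 passed the test. Rbl2 (p130), the RB protein of resting cells, was at 54.8 CPM in Sub-ASCs, 28.2 in PVASCs (-0.96 ± 0.07, adjusted p = 4.90e-08) and 26.9 in Ab-ASCs. Rbl1 (p107), an RB protein of cycling cells, was at 16.2, 26.0 (0.68 ± 0.08, adjusted p = 6.71e-06) and 28.6 CPM. E2f8 was at 1.56 CPM in Sub-ASCs, 21.3 in PVASCs (3.76 ± 0.20) and 17.3 in Ab-ASCs, and E2f7 at 1.81, 18.5 (3.34 ± 0.12) and 25.4 CPM. E2f6, a repressor that does not bind RB, had its top level in PVASCs (0.85 ± 0.05 against Sub-ASCs and 0.30 ± 0.05 against Ab-ASCs). Tfdp2, a partner of E2F factors, was also higher in PVASCs than in Ab-ASCs (0.27 ± 0.09, adjusted p = 0.0187), and E2f4, a repressor E2F, was lower (-0.26 ± 0.07, adjusted p = 0.00570), a call that was lost with read totals (-0.03, adjusted p = 0.680). Lin37 and Lin52 of the MuvB complex were at 11.5 and 7.53 CPM in Sub-ASCs, 7.39 and 5.57 in PVASCs (-0.64 ± 0.11 and -0.44 ± 0.12) and 8.81 and 5.45 in Ab-ASCs.

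Of 17 cyclins, CDKs and Cdc25 phosphatases, some of them targets of the inhibitors, 15 were lower in Sub-ASCs than in both other groups, beside 27.5% of genes tested. The exceptions were Cdk6 and Ccnh. All 17 were higher in PVASCs than in Sub-ASCs, by log2 fold changes from 0.21 (Ccnh) to 4.07 (Ccnb1), and 15 were higher and none lower in Ab-ASCs (median 1.47). Against Ab-ASCs, 4 were higher and 9 lower in PVASCs, and with read totals 5 were higher and 3 lower, with the median moving from -0.18 to 0.05. Among the D cyclins and their kinases, Ccnd1 and Cdk6 exceeded both other groups in PVASCs, and Ccnd2, Ccnd3 and Cdk4 did not. Ccnd1 (cyclin D1) was at 525 ± 5.57 CPM in PVASCs against 189 ± 7.38 in Ab-ASCs and 32.0 ± 0.929 in Sub-ASCs. Cdk6 was at 41.5 ± 1.76 CPM in PVASCs, 12.3 ± 3.63 in Ab-ASCs (1.74 ± 0.15, adjusted p = 1.55e-06) and 14.6 ± 0.786 in Sub-ASCs (2.83-fold, adjusted p = 1.52e-06). Ccnd2 was at 398 CPM in PVASCs and 396 in Ab-ASCs (0.01 ± 0.04, adjusted p = 0.925), and Ccnd3 was lower in PVASCs (112 against 133 CPM, -0.25 ± 0.06, adjusted p = 0.00309). That Ccnd3 difference is about the size of the shift between library scalings (median of all genes -0.06 with TMM and 0.17 with read totals). Cdk4 was at 203 CPM in Sub-ASCs, 354 in Ab-ASCs and 313 in PVASCs, with no call between PVASCs and Ab-ASCs (-0.18 ± 0.08, adjusted p = 0.0900). That difference of Cdk4 was 0.05 with read totals and -0.06 without Ab-ASC replicate 1 (adjusted p = 0.307). Ccnb1 (cyclin B1) was at 4.82, 119 and 81.3 CPM and Cdk1 at 9.13, 130 and 83.7 CPM in the same order. Cdc25c, the phosphatase that activates Cdk1, was at 0.719, 13.5 and 10.4 CPM. PVASCs thus held the highest levels of Cdkn2a and Cdkn2b together with the highest levels of Ccnd1 and Cdk6.

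The proliferation genes of the list (15 genes, such as Mki67, Mcm2 and Plk1) had a summed level of 213 to 219 CPM in Sub-ASCs, 1401 to 1428 in Ab-ASCs and 1184 to 1208 in PVASCs. All 15 were higher in PVASCs and in Ab-ASCs than in Sub-ASCs (medians 3.15 and 3.35). Between PVASCs and Ab-ASCs, 2 were higher (Mki67, 0.81 ± 0.16, and Bub1, 0.61 ± 0.14) and 11 were lower, among them Rrm2 (-0.86 ± 0.07) and Aurka (-0.75 ± 0.10), with a median of -0.38. With read totals, 4 were higher and 7 lower (median -0.16). These levels moved with those of Lmnb1, Cdkn1a, Cdkn2c, Cdkn2d, Trp53 and Mdm2, all lowest in Sub-ASCs, and in the opposite direction to Cdkn1b, and their part in those results was not tested. Cdkn2a was also higher in PVASCs than in Sub-ASCs, while its Sub-ASC and Ab-ASC libraries overlapped, and the part of the proliferation genes in its levels was not tested either.

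Lmnb1, which encodes lamin B1 of the nuclear lamina, had the largest fold of the 10 genes between Sub-ASCs and Ab-ASCs, and nearly as large a fold to PVASCs. It lies at chr18:56707813-56753424 on the plus strand. Sub-ASC replicates had 5.77, 4.39 and 4.98 FPKM, from 398, 331 and 387 reads. Ab-ASC replicates had 40.8, 37.8 and 37.9 FPKM, and PVASC replicates 36.7, 33.9 and 34.7. PVASCs were 6.97-fold higher than Sub-ASCs (2.80 ± 0.09, adjusted p = 2.35e-11) and Ab-ASCs 7.71-fold (2.95 ± 0.09, adjusted p = 1.52e-11). PVASCs and Ab-ASCs did not overlap, but the fitted difference missed the threshold (-0.15 ± 0.08, adjusted p = 0.133) and was 0.08 (adjusted p = 0.393) with read totals.

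Of 14 other genes of the lamina and of chromatin proteins, 12 were higher and 1 lower in PVASCs than in Sub-ASCs (median 1.23), and 12 were higher and 1 lower in Ab-ASCs (median 1.39). Lmna, the A-type lamin gene, was at 255 CPM in Sub-ASCs, 607 in PVASCs (1.25 ± 0.06, adjusted p = 1.27e-09) and 741 in Ab-ASCs, and Lmnb2 at 13.1, 30.3 (1.20 ± 0.07) and 35.7 CPM. Both lamins thus went the same way as Lmnb1 with smaller folds. Hmga2, an architectural chromatin protein known to hold down the Cdkn2a locus in young neural stem cells, was at 42.7 CPM in Sub-ASCs, 520 in PVASCs (3.61 ± 0.07, adjusted p = 2.97e-13) and 413 in Ab-ASCs. Hmgb2, which is lost in senescent fibroblasts, was at 13.9, 63.8 (2.20 ± 0.10) and 60.5 CPM. Sun1 was the gene lower in both (-0.35 ± 0.05 in PVASCs and -0.17 ± 0.06 in Ab-ASCs). Between PVASCs and Ab-ASCs, 3 were higher and 7 lower, and with read totals 6 were higher and 3 lower, with the median moving from -0.15 to 0.08. Hmga1 was higher in PVASCs (222 against 178 CPM, 0.32 ± 0.08, adjusted p = 0.00470). Sun2 and Emd (emerin), both of the inner nuclear membrane, were lower (-0.60 ± 0.07 and -0.49 ± 0.07).

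Genes of the senescence-associated secretory phenotype, 31 of 32 with enough reads, were split between the depots. In PVASCs 13 were higher and 16 lower than in Sub-ASCs (median -0.38), and 8 were higher and 21 lower than in Ab-ASCs (median -0.74). With read totals the counts were 13 and 15 (median -0.22) and 8 and 19 (median -0.52). In Ab-ASCs 20 were higher and 9 lower than in Sub-ASCs (median 1.10), and 16 exceeded both other groups, beside 20.9% of genes tested. PVASCs were lower than both other groups in 11 of the 31, beside 12.0% of genes tested: Cxcl1, Cxcl2, Cxcl5, Ccl2, Ccl7, Mmp3, Mmp12, Mmp13, Plau, Csf2 and Vegfa. Among the chemokines, Cxcl1 was at 5.16 CPM in PVASCs against 61.6 in Ab-ASCs (-3.58 ± 0.07) and 34.3 in Sub-ASCs (-2.73 ± 0.07), and Cxcl2 had 6 to 15 reads in PVASC libraries, 259 to 283 in Ab-ASC libraries and 127 to 138 in Sub-ASC libraries. Cxcl5 was at 8.51, 26.1 and 191 CPM. Ccl8 was at 1.24 and 1.81 CPM in PVASCs and Ab-ASCs and at 502 CPM in Sub-ASCs. Il6 was highest in Ab-ASCs, at 99.9 CPM against 59.8 in PVASCs (-0.74 ± 0.08, adjusted p = 8.39e-06) and 37.2 in Sub-ASCs. PVASCs were higher than both others in Serpine2, Areg and Spp1, with Areg at 361 to 407 reads in PVASC libraries, 85 to 110 in Ab-ASC libraries and 4 in each Sub-ASC library. Igfbp5 was at 345 CPM in PVASCs, 363 in Sub-ASCs (-0.07 ± 0.05, adjusted p = 0.191) and 37.9 in Ab-ASCs (3.19 ± 0.05), and its difference from Sub-ASCs was 0.09 with read totals (adjusted p = 0.12). Ereg (epiregulin) was at 130 CPM in PVASCs, 167 in Ab-ASCs (-0.36 ± 0.16, adjusted p = 0.0802, and -0.58, adjusted p = 9.13e-09, without Ab-ASC replicate 1), with 70 to 80 reads in Sub-ASC libraries. Igfbp2 was at 0.810 CPM in Sub-ASCs, 36.6 in Ab-ASCs and 13.7 in PVASCs.

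The genes whose log2 CPM followed each of the 10 most closely over the 9 libraries were looked up as a description, since 9 points in 3 groups mostly repeat the group differences. For Cdkn2a they were Flt4 (Pearson r = 0.995), Cd24a (0.994) and Adgrg3 (0.993), and only 8 genes exceeded 0.99. For Lmnb1 they were Bard1, Fgd3 and Ccnf (all 0.999), with 310 genes over 0.99, and for Cdkn1a they were Fbln2, Fmnl3 and Fkbp1a (all 0.999), with 347. Trp53 was followed by Snrpe (0.999), Prmt7 (0.997) and Lsm6 (0.997), Mdm2 by Mum1l1, Mastl and Yap1 (all 0.996), and Cdkn1b by Kif21a (0.995), Pde5a (0.994) and Fam13c (0.992). Few genes shared the pattern of Cdkn2b and Rb1, with 1 each over 0.99 (Inpp5d and Zfp800).

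Markers of other cells that ASC cultures could hold also differed between the depots. By flow cytometry, the authors found PVASCs negative for the leukocyte marker CD45 and the endothelial marker Pecam1 as proteins, which were not measured here. Endothelial markers (6 of 6 with reads) summed to 476 to 482 CPM in PVASCs, 55.5 to 56.4 in Ab-ASCs and 161 to 174 in Sub-ASCs. In PVASCs, 6 were higher and none lower than in Ab-ASCs, and 5 were higher and 1 lower than in Sub-ASCs. The one lower was Tek, at 14.8 CPM against 46.0. The sum was highest in PVASCs, as Cdkn2a was, and had the order of Cdkn2b over all 3 groups (PVASC, Sub-ASC, Ab-ASC), and its part in those results was not tested. Smooth muscle markers summed to 2793 to 2939 CPM in PVASCs, 4584 to 5668 in Ab-ASCs and 88.3 to 92.7 in Sub-ASCs. Most of it came from Acta2 (2505, 4436 and 52.7 CPM). Lmnb1, Cdkn1a and Trp53 were lowest in Sub-ASCs too, and the part of these markers in those results was not tested. Leukocyte markers (8 of 8 with reads) summed to 302 to 311 CPM in PVASCs, 315 to 411 in Ab-ASCs and 265 to 268 in Sub-ASCs, most of it from Lyz2 (249, 271 and 163 CPM). Of the 8, 6 were lower and 2 higher than in Sub-ASCs both in PVASCs (median -1.01) and in Ab-ASCs (median -0.61). Ptprc (CD45) was at 2.81, 1.41 and 8.94 CPM, and Cd68 at 11.6, 23.1 and 32.8 CPM. In the same order, mesothelial markers summed to 41.5 to 42.4, 97.3 to 102 and 1.30 to 2.28 CPM, with Upk1b, Lrrn4 and Muc16 at 0 in Sub-ASCs. Adipocyte markers summed to 45.6 to 48.3, 35.1 to 38.7 and 143 to 155 CPM, most of it from Fabp4 (46.3, 36.6 and 129 CPM). Adipoq was at 0.064, 0.033 and 0.67 CPM, and Lep was at 0 in every library.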

How the data were processed

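Bulk mRNA of Sub-ASCs, Ab-ASCs and PVASCs was sequenced for the authors by the company Novogene with 3 libraries per group, after NEBNext Ultra library preparation. The authors deposited raw counts of reads per gene and library, without normalization, and the submitters' processing notes name CASAVA 1.8, Bowtie 0.12.2 and featureCounts 1.5.0-p3 and the builds mm8 and mm10. Positions were those of GENCODE M21 (GRCm38) for 53585 of 54532 genes (98.3%) and for all 10 genes described. Strandedness was not given in the sources used here. Groups were taken from the labels. The genes, pathway lists and tests were chosen with earlier results of these data known.

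Counts were tested with edgeR 4.0.16 (quasi-likelihood F-test, filterByExpr, TMM, all 9 libraries in 1 fit without covariates) in R 4.3.3, with Benjamini-Hochberg adjustment over 16526 genes and a threshold of 0.05. The procedure was tested on simulated data. SEs are of log2 fold changes. Total reads per library were 20524173 to 29881036, and 3 reads correspond to 0.0917 to 0.161 CPM. No pair of libraries agreed within sampling noise (chi-square per degree of freedom 2.87 to 27.6). From each pathway list, the genes with the largest differences that passed the test were named in each direction. Genes beyond them were chosen after their values were seen. Likeness was calculated among genes with a mean of at least 1 CPM. Alternatives were DESeq2 1.42.0, RLE size factors, other filters, only the groups compared, a replicate block, a log2 fold change of at least 1, leaving out each library, and, added after the data were seen, read totals without TMM. Python 3.11.15 with pandas 2.3.3, numpy 2.4.6 and matplotlib 3.10.9 served for tables and figures.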

Additional observations from a re-analysis of the deposited data

How the results depend on the processing

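Of 480 values of the 10 genes (each comparison under 16 other settings), 468 kept their direction and their side of the threshold, 7 lost the call, 1 gained it and 4 changed sign. With plain read totals the sign changed for Cdkn1a (0.10), Trp53 (0.027) and Lmnb1 (0.081) in PVASCs against Ab-ASCs, and without Ab-ASC replicate 3 for Cdkn2a in Ab-ASCs against Sub-ASCs (0.10, where leaving out 1 library gave -0.23 to 0.10). Apart from these, no reversal was seen. Of the DEGs between PVASCs and Ab-ASCs, 43.5% had the higher level in PVASCs with TMM and 70.1% with read totals. Requiring a log2 fold change of at least 1 left 5328 of 11628 DEGs in PVASCs against Sub-ASCs, 2551 of 9396 against Ab-ASCs, 6241 of 12442 in Ab-ASCs against Sub-ASCs and 7492 of 13973 among the groups, and 4, 2 and 4 of the 10 genes in the 3 pairs. Leaving out each library gave 10954 to 12736, 8294 to 9675, 11976 to 12714 and 13665 to 14419 DEGs, and 8 to 9, 7 to 9, 8 to 9 and 10 of the 10 genes.

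Whether replicate numbers pair the samples stayed unclear. Correlations of same-numbered deviations from the group means were weak, between -0.05 and 0.10. The libraries correlated best with their own number in 6 of 6 cases in PVASCs against Sub-ASCs, 0 of 6 in PVASCs against Ab-ASCs and 3 of 6 in Ab-ASCs against Sub-ASCs. A block for the replicate number gave 11458, 9183, 12302 and 13814 DEGs, and the calls of the 10 genes numbered 9, 8, 9 and 10, as without the block. Depth limits the 3 tested noncoding genes near Cdkn2a, where Sub-ASC libraries had at most 1 read each.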
